A study of Homo sapiens with 12 samples.

Results

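The transcripts described here are those of AP-1, a dimeric transcription factor, and of the early growth response factor EGR1. They comprise the Fos subunits FOS, FOSB, FOSL1 and FOSL2, the Jun subunits JUN, JUNB and JUND, the related factor ATF3, and EGR1. The 9 genes were chosen by name out of 18417 genes tested. Each was read from the only probe set that carries its symbol alone, so all 9 were measured. They were followed in 1833, a bone-seeking derivative of MDA-MB-231 human breast cancer cells. Controls (3 arrays) are labelled as the 1833 line with no construct named. The shHMGA2 cells (3 arrays) expressed a lentiviral shRNA against HMGA2, a chromatin protein, under puromycin selection. The cells labelled Tet1 or HOXA9 (2 independent arrays each) carried a Tet-On regulator and an inducible Flag-tagged Tet1, an enzyme that oxidises 5-methylcytosine, or inducible HOXA9, a homeobox factor. These lines were selected with G418 as well as puromycin and grew in serum approved for Tet systems. Their source names say 1834 where their titles say 1833. Puromycin is named for every line with a construct, and no vector or selection is named for control. No inducer dose or time is given, and the sources used here do not say whether a line was 1 clone or a pool. The comparisons ask how the levels of these genes differ between the cells so labelled.

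AP-1 binds DNA as a dimer held together by a leucine zipper. Fos proteins pair only with partners such as Jun, while Jun proteins can also pair with each other. Growth factors, serum and stress switch on FOS, FOSB, JUN, JUNB, ATF3 and EGR1 within minutes through kinases that act on factors already bound at their promoters, whereas FOSL1 and FOSL2 follow later and stay high in many invasive basal-type breast cancer lines. EGR1 is a zinc finger factor of the same early response.

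The start regions of 6 members are shown: those whose transcripts were called higher in the arrays labelled Tet1 and HOXA9 than in control and whose windows held a match to a motif named below. JUNB was also called higher, but its window held no match, and it is not printed. All sequences are from RefSeq on GRCh38.p14, which held windows for 8 of the 9 members (9 windows, ATF3 having a pair), and each is written on the strand of its gene. Only bases before the annotated start are printed. Capitals mark matches, on either strand, to TGACGT (the core of the cAMP response element TGACGTCA), to TGACATCA (an element close to it), and to the CArG box bound by serum response factor. The stretches are chr14:75278678-75278827 (plus strand) for FOS, chr19:45467846-45467995 (plus) for FOSB, chr5:138465329-138465478 (plus) for EGR1, chr19:18281693-18281842 (minus) for JUND, chr1:58784048-58784197 (minus) for JUN and chr1:212565257-212565406 (plus) for ATF3. All end 1 base before the start except that of JUND, which runs from -220 to -71.
FOS: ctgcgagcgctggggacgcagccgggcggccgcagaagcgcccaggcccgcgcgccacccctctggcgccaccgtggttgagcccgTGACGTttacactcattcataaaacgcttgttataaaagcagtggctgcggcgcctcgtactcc
FOSB: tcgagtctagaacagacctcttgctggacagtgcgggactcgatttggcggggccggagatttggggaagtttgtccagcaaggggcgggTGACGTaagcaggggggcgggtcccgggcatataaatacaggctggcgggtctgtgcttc
EGR1: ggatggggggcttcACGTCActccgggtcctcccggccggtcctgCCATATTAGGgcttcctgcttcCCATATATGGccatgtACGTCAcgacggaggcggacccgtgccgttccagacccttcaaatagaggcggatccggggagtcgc
JUND: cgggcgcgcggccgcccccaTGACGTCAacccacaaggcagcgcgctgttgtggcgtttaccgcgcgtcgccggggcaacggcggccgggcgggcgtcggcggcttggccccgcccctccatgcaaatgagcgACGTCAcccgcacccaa
JUN: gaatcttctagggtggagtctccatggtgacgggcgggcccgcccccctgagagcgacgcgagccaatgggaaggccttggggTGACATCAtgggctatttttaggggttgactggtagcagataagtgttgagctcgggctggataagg
ATF3: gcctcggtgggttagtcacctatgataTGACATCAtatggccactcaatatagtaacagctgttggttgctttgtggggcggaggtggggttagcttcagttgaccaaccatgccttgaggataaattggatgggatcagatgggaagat

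The core TGACGT lay in 5 of the 9 member windows of 250 bases before the start (FOS, FOSB, EGR1, JUND and FOSL2), against 7.1% of all 35116 such windows. Counted with -1 as the base before the start, it began at -64 in FOS and at -60 in FOSB. The full TGACGTCA, which contains the core, was found in JUND (1.65% of all windows). TGACATCA was found in JUN and ATF3 (2.37%) and was added to the search after these windows had been read. Of the pair of ATF3 windows, only the one printed held it. EGR1 held both CArG boxes of the member windows, beginning at -105 and -83 (1.16% of all windows hold at least 1), and a match to the EGR site GCGNGGGCG upstream of the stretch shown (8.41%). The classical AP-1 element TGANTCA was in 0 of the 9 windows (6.57% of all). A match describes letters only, and binding was not measured.

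The arrays formed 2 sets, control with shHMGA2 and Tet1 with HOXA9. Correlations over all probe sets were 0.986 to 0.998 and 0.993 to 0.997 within the sets and 0.945 to 0.966 between them. In comparisons across the sets, the construct cannot be told apart from parent subline, serum, selection or array set. There the median gene was 0.25 (Tet1) and 0.24 (HOXA9) higher than control on the log2 scale. Over all probe sets the arrays lay further apart. Their medians were 7.21 to 7.28 in control and shHMGA2 and 7.66 to 7.71 in Tet1 and HOXA9. Lower quartiles were 5.75 to 5.76 and 6.22 to 6.25. With equal array medians the median gene was at -0.22 (Tet1) and -0.21 (HOXA9) against control. The columns numbered 3 for Tet1 and HOXA9 were averages of the other 2 and were left out. TET1 RNA, from its only probe set, was 8.72 to 9.29 in shHMGA2, 6.98 to 7.16 in the arrays labelled Tet1, 7.2 to 7.4 in those labelled HOXA9 and 6.45 to 6.66 in control (log2), so it does not bear out the Tet1 label, and no source here says if its probes match the introduced copy. Below, Tet1 stands for the arrays labelled so. A probe set shared by ELAC2 and HMGA2 was 8.47 to 9.02 in shHMGA2 and 9.48 to 9.65 in control. HOXA9 was not analysed here. All 9 measured MDA-MB-231 traits (among them VIM, CAV1 and AXL) had group means above 6.26, the 30th percentile over the probe sets, used here as a guide to background. Of 10 luminal and epithelial markers, 2 or 3 lay below it in each group.

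FOS, the prototype Fos subunit, differed most between the groups. Its log2 values were 6.67, 6.96 and 6.93 in control, 6.84, 6.99 and 6.99 in shHMGA2, 9.55 and 9.35 in the arrays labelled Tet1, and 8.88 and 8.83 in those labelled HOXA9. Control and shHMGA2 overlapped, every Tet1 array lay above every HOXA9 array, and both groups lay at least 1.84 above the other set. The control means of FOS (6.86), FOSB (6.95) and ATF3 (6.61) lay not far above 6.26, the guide to background. So did their shHMGA2 means (6.94, 6.93 and 6.89). How far background limits the fold differences of these genes was not tested. Against control FOS was 6.05-fold higher in Tet1 (log2 2.6, SE 0.1, 95% confidence interval 2.39 to 2.81, limma adjusted p = 2.5e-09) and 4-fold higher in HOXA9 (log2 2, interval 1.79 to 2.21, adjusted p = 1.8e-08). Only 45 of 18417 genes rose more in Tet1 and 108 in HOXA9. With a single quantile normalization the FOS differences were 2.41 and 1.7, and with equal array medians 2.13 and 1.54, all called.

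FOSB, which has a transactivating C-terminus like FOS, followed at a smaller size. It stood at 6.89, 6.94 and 7.02 in control, 6.81, 7.06 and 6.91 in shHMGA2, 8.43 and 8.36 in Tet1 and 8.01 and 7.67 in HOXA9. It was 2.72-fold higher than control in Tet1 (log2 1.44, SE 0.1, limma adjusted p = 1.7e-07) and 1.85-fold higher in HOXA9 (log2 0.89, adjusted p = 7.2e-06). The HOXA9 difference was 0.44 after quantile normalization and 0.43 with equal medians, and that in Tet1 1.09 and 0.98. All 4 were called.

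FOSL1 and FOSL2 encode Fos proteins that lack the strong C-terminal activation domain of FOS and FOSB. Both were lower in the Tet1 and HOXA9 arrays than in control. FOSL1 (FRA-1) was at 11.17, 11.21 and 11 in control, 11.01, 10.95 and 10.67 in shHMGA2, 10.25 and 10.32 in Tet1 and 10.35 and 10.39 in HOXA9. Its Tet1 and HOXA9 arrays lay below all arrays of the other set and differed from each other by 0.03 at the nearest. It was 1.79-fold lower than control in Tet1 (log2 -0.84, SE 0.1, limma adjusted p = 9.7e-06) and 1.69-fold lower in HOXA9 (log2 -0.75, adjusted p = 2.5e-05). FOSL2 (FRA-2) was at 10.64, 10.69 and 10.84 in control, 10.16, 10.24 and 10.01 in shHMGA2, 10.15 and 10.15 in Tet1, and 10.07 and 10.25 in HOXA9. Control alone was high, and the other 3 groups overlapped. FOSL2 was 1.5-fold lower than control in shHMGA2 (log2 -0.59, SE 0.08, limma adjusted p = 0.00021), 1.49-fold lower in Tet1 and 1.48-fold lower in HOXA9 (log2 -0.57 and -0.56, adjusted p = 7.5e-05 and 9.2e-05). Both genes stayed lower and called in Tet1 and HOXA9 under both other scalings, FOSL1 at -0.73 and -0.69 after quantile normalization and -1.3 and -1.21 with equal medians, FOSL2 at -0.47 and -0.49, and -1.04 and -1.02.

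Within an array, FOS and FOSL1 moved apart by an amount that no shift of the whole array alters. A scaling that depends on the level of a gene does alter it. Against control in Tet1, FOS and FOSL1 were at 2.6 and -0.84 on the deposited values and at 2.41 and -0.73 after quantile normalization. The differences below are from the deposited values. Relative to control, FOS minus FOSL1 was 3.43 higher in Tet1, 2.75 higher in HOXA9 and 0.33 higher in shHMGA2 (log2 differences of differences, SD of the single arrays 0.06 to 0.25 in the 4 groups). For FOSB minus FOSL1 the changes were 2.28, 1.64 and 0.22, and for JUNB minus FOSL1 2.32, 1.87 and 0.16. They are given with no test, and the ratios show unequal change only.

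Among the Jun subunits JUNB and JUND rose in Tet1 and HOXA9 against control, and JUN by less. JUNB, a weaker activator than JUN that can oppose it, was at 8.83, 8.76 and 8.64 in control, 8.64, 8.67 and 8.66 in shHMGA2, 10.27 and 10.19 in Tet1 and 9.93 and 9.8 in HOXA9. It was 2.8-fold higher than control in Tet1 (log2 1.48, SE 0.07, limma adjusted p = 1.6e-08) and 2.17-fold higher in HOXA9 (log2 1.12, adjusted p = 1.2e-07). JUND, the subunit often present in resting cells, was at 9.09, 8.9 and 9.17 in control, 8.93, 8.91 and 9.02 in shHMGA2, 10.27 and 10.16 in Tet1 and 9.89 and 10.04 in HOXA9. JUND was 2.24-fold above control in Tet1 (log2 1.16) and 1.88-fold above it in HOXA9 (log2 0.91; limma adjusted p = 2.7e-07 and 1.7e-06). For both genes the sets did not overlap. With equal medians JUNB was at 1.02 and 0.67 and JUND at 0.7 and 0.46, and after quantile normalization JUNB was at 1.5 and 1.09 and JUND at 1.2 and 0.92, all called. JUN itself was at 9.91, 10.12 and 9.74 in control, 10.05, 10.23 and 9.77 in shHMGA2, 10.54 and 10.46 in Tet1 and 10.25 and 10.29 in HOXA9. The JUN differences of 0.57 and 0.35 from control passed the test (limma adjusted p = 0.0012 and 0.024). After quantile normalization JUN stayed called in both, at 0.67 in Tet1. With equal array medians, however, the JUN differences were 0.11 and -0.11 and not called (limma adjusted p = 0.46 and 0.47). The HOXA9 call was also lost without control replicate 3 (0.26), HOXA9 replicate 1 (0.37) or HOXA9 replicate 2 (0.32).

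**Figure D1:**
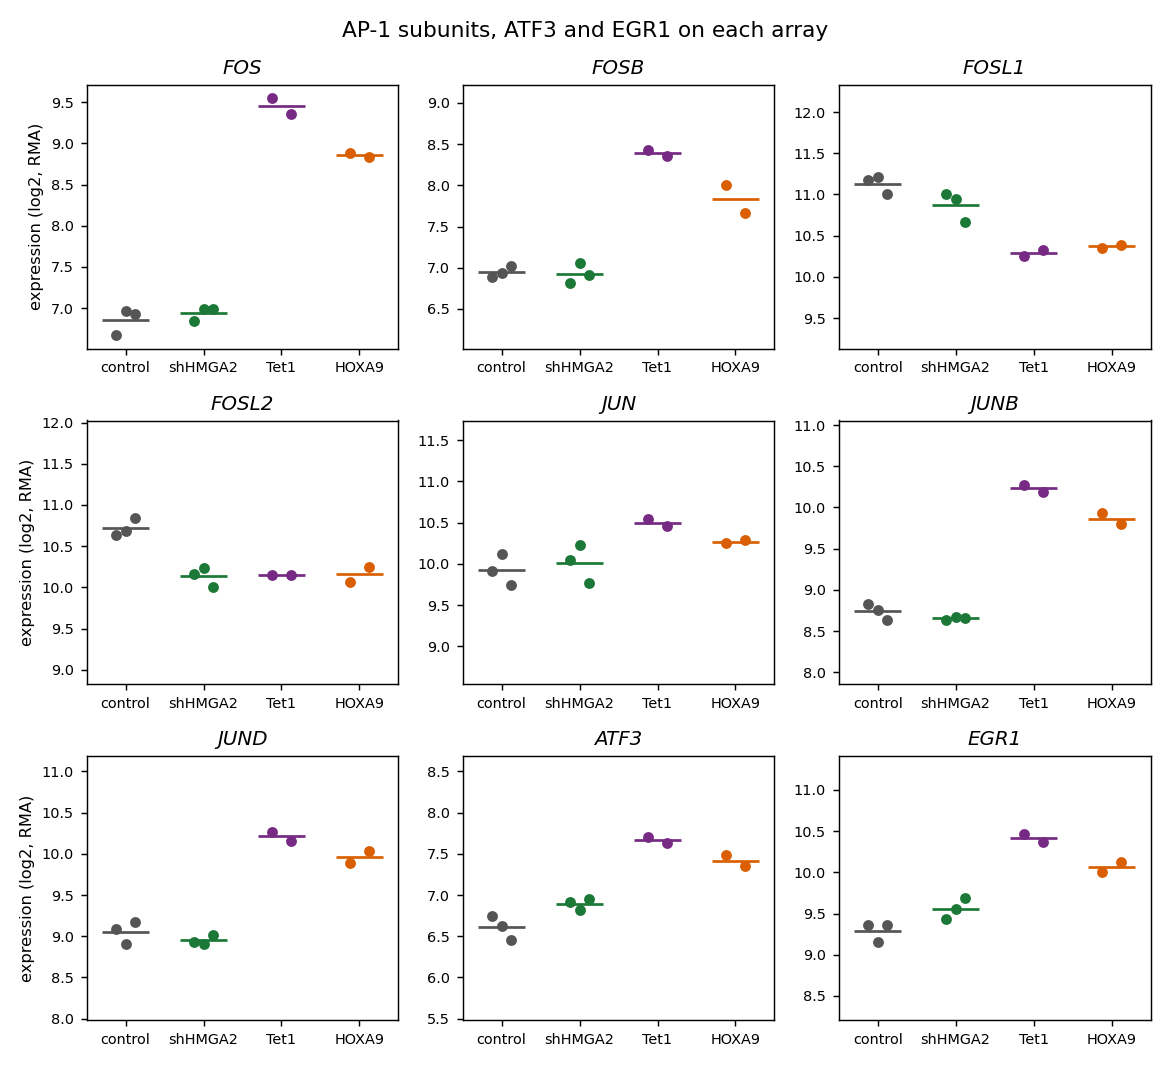
Log2 expression of each of the 9 genes (y axis, RMA values, each panel spanning 3.2 log2 units) on the 10 independent arrays, by group (x axis). Points are arrays and lines are group means. FOS, FOSB, JUNB and JUND stand higher in Tet1 and HOXA9 than in the other groups, FOSL1 stands lower, and FOSL2 is high in control only.

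ATF3 and EGR1 also rose in Tet1 and HOXA9, and to a lesser extent in shHMGA2. ATF3, a stress-induced factor that often represses as a homodimer, was at 6.74, 6.62 and 6.46 in control, 6.91, 6.82 and 6.95 in shHMGA2, 7.71 and 7.63 in Tet1 and 7.48 and 7.35 in HOXA9. It was 2.09-fold higher than control in Tet1 and 1.75-fold higher in HOXA9 (log2 1.06 and 0.81, limma adjusted p = 4.6e-07 and 4.3e-06). ATF3 depended on the scaling, with 0.55 and 0.27 after quantile normalization and 0.6 and 0.35 with equal medians, all called. Its control and shHMGA2 values lay not far above the guide to background. EGR1 was at 9.36, 9.15 and 9.36 in control, 9.43, 9.56 and 9.69 in shHMGA2, 10.47 and 10.37 in Tet1 and 10.01 and 10.12 in HOXA9. It was 2.19-fold higher than control in Tet1 and 1.71-fold higher in HOXA9 (log2 1.13 and 0.78, limma adjusted p = 4.8e-07 and 9.8e-06). With equal medians these EGR1 differences were 0.66 and 0.32, still called. After quantile normalization EGR1 was at 1.19 in Tet1 and called in both.

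Read against all genes, a call between the sets says little by itself. All 9 members were called in Tet1 against control, 7 higher and 2 lower, where 77.1% of all genes were called (53.9% higher, 23.2% lower). All 9 were called in HOXA9 against control in the same directions, where 75.7% were called (54% higher, 21.6% lower). Over all genes the arrays did not overlap for 85.7% in Tet1 and 82.8% in HOXA9. Both comparisons use the same control arrays. The calls over all genes moved with the scaling, to 65.9% in Tet1 and 63.8% in HOXA9 after quantile normalization and 73.4% and 71.3% with equal medians. The split went to 32.6% higher and 33.3% lower in Tet1 and 29.7% and 34% in HOXA9 after quantile normalization, and to 21.9% and 51.4%, and 20.3% and 51.1%, with equal medians. By size, 6 of 9 were at least 2-fold higher in Tet1, where 6.44% of all genes were called and at least 2-fold higher, and 2 of 9 (FOS and JUNB) in HOXA9, where 5.6% were. These counts also depended on the scaling. After quantile normalization they were 5 in Tet1 (2.35% of all genes) and 2 in HOXA9 (2.3%), and with equal medians 2 in Tet1 (FOS and JUNB, 1.41%) and 1 in HOXA9 (FOS, 1.48%). The median member was at 1.13 in Tet1 and 0.81 in HOXA9, against 0.25 and 0.24 over all genes.

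In the shHMGA2 arrays few members differed from control, at a share near that over all genes. Of the 9, 2 rose (ATF3 and EGR1), 1 fell (FOSL2) and 6 did not pass, where 26.2% of all genes were called (13.6% higher, 12.6% lower). EGR1 was 1.2-fold higher than control (log2 0.27, SE 0.08, 95% confidence interval 0.09 to 0.44, limma adjusted p = 0.03) and ATF3 1.22-fold higher (log2 0.28, SE 0.08, interval 0.12 to 0.45, adjusted p = 0.015). The arrays did not overlap for these genes, by a gap of 0.07 and 0.08, or for FOSL2, where 40.5% of all genes did not overlap. EGR1 lost its call without control replicate 2, shHMGA2 replicate 2 or shHMGA2 replicate 3 (0.2, 0.27 and 0.2), with equal array medians (0.23) and in a fit of these groups only (0.27, adjusted p = 0.056). ATF3 lost it without control replicate 3 (0.21) or shHMGA2 replicate 3 (0.26). FOSL2 stayed called under every alternative tried, between -0.64 and -0.52 with any array left out, and 367 genes fell more. FOSL1 at -0.25 did not pass (interval -0.44 to -0.05, limma adjusted p = 0.059), but did with equal medians (-0.28), with a mean-variance trend and robust prior (adjusted p = 0.041), with the averaged columns counted (adjusted p = 0.028), and without control replicate 3 (-0.31) or shHMGA2 replicate 1 (-0.32). The intervals of the others were -0.1 to 0.27 for FOS, -0.22 to 0.17 for FOSB, -0.15 to 0.34 for JUN, -0.23 to 0.05 for JUNB and -0.27 to 0.07 for JUND.

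Some genes typical of another cell line were also higher in the shHMGA2 arrays. The lists used here were chosen with earlier results of these data known, so their shares are descriptive only. Of 9 genes typical of HEK293, an embryonic kidney line, 5 rose and 0 fell (55.6% higher, against 13.6% of all genes). Those with the largest rises were HOXD10 (log2 4.47), NEFM (1.65) and NEFL (1.17). The 4 not called were CDH6 (-0.12), LHX1 (0.1), PAX2 (-0.09) and TFAP2B (-0.11). The mean level of that list was 7.42 to 7.63 in shHMGA2 and 6.59 to 6.69 in control. On the deposited values the list was not higher in shHMGA2 alone. In Tet1 6 rose and 1 fell (mean level 7.09 to 7.15), and in HOXA9 5 rose and 2 fell (6.98 to 7.11). The shares higher were 66.7% and 55.6%, against 53.9% and 54% of all genes. List medians were 0.25 in shHMGA2, 0.63 in Tet1 and 0.55 in HOXA9, against -0.03, 0.25 and 0.24 over all genes. After quantile normalization 3 rose and 3 fell in Tet1, and 2 and 3 in HOXA9. The list medians were then 0.09 and -0.01, against 0.19 in shHMGA2. CDKN2A, CDKN2B and MTAP, which lie together in a region deleted from MDA-MB-231, rose in shHMGA2 by 2.48, 0.56 and 1.72 (limma adjusted p = 3.6e-07, 0.0015 and 2.9e-07). There 7 of 9 MDA-MB-231 traits fell (77.8%, against 12.6% of all genes) and 0 rose. The part of these in the FOSL2, ATF3 and EGR1 differences was not tested.

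Between the arrays labelled Tet1 and HOXA9, which lie in 1 set and had the same selection and serum, FOS was 1.51-fold higher in Tet1 (log2 0.6, SE 0.1, 95% confidence interval 0.37 to 0.83, limma adjusted p = 0.033). It was the 1 member called of 9, where 0.434% of all genes were called (0.114% higher in Tet1). FOSB was 1.47-fold higher and missed the threshold (log2 0.56, SE 0.11, interval 0.32 to 0.79, adjusted p = 0.058). After quantile normalization FOSB was at 0.65 and called (adjusted p = 0.016), as it was with equal medians (0.55, adjusted p = 0.046), where 0.787% and 0.424% of all genes were called. Without HOXA9 replicate 1 FOSB was at 0.72 and called (limma adjusted p = 0.026), and without HOXA9 replicate 2 it was at 0.39. The FOS call was lost without any of the 4 arrays, in fits that leave 1 array in a group and take the spread from the others, with values of 0.5 to 0.7 (adjusted p = 0.086 to 0.45).

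JUNB, EGR1, ATF3, JUND and JUN had higher means in Tet1 without passing. JUNB was 0.36 higher in Tet1 (interval 0.19 to 0.54, limma adjusted p = 0.094), EGR1 0.35 (0.14 to 0.57, adjusted p = 0.21), ATF3 0.26 (0.05 to 0.46, adjusted p = 0.38), JUND 0.25 (0.04 to 0.45, adjusted p = 0.42) and JUN 0.23 (-0.07 to 0.53, adjusted p = 0.66). FOSL1 and FOSL2 were at -0.08 (-0.32 to 0.15) and -0.01 (-0.22 to 0.2). The Tet1 and HOXA9 arrays did not overlap for 8 of the 9, FOSL2 being the exception, where 41.3% of all genes did not overlap. At an unadjusted p under 0.05 there were 6 members, all higher in Tet1, where 9.16% of all genes passed (3.87% higher).

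Ranked by this difference over all 18417 genes, 17 genes were further up than FOS and 21 further up than FOSB. The counts were 108 for JUNB, 118 for EGR1, 323 for ATF3, 380 for JUND and 519 for JUN. After quantile normalization they were 13, 20, 100, 113, 345, 315 and 430. FOSL1 and FOSL2 lay in the body of the distribution, with 20.8% and 43.2% of genes below them. The median member was at 0.26 and the median gene at 0.01.

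**Figure D2:**
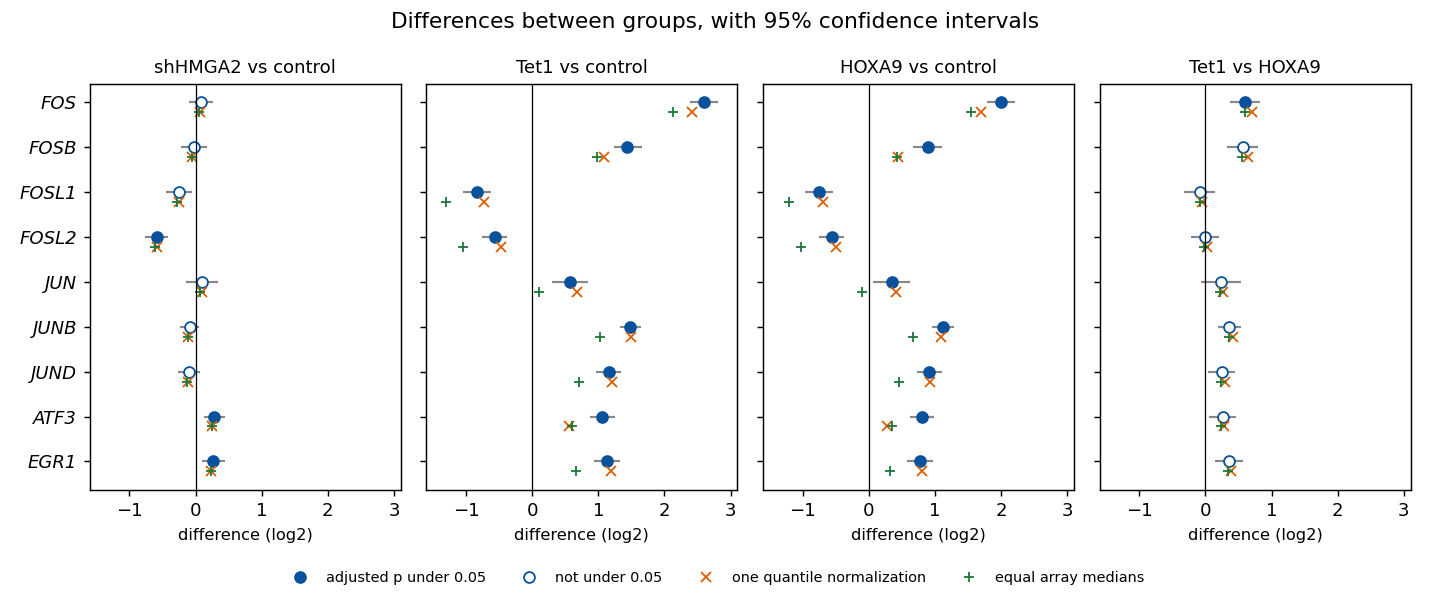
Differences between group means (x axis, log2) for the 9 genes (y axis) in 4 comparisons. Circles are the fit to the deposited values, filled where the adjusted p was under 0.05, with 95% confidence intervals, and the crosses and plus signs give the same difference after quantile normalization and with equal array medians. With equal medians JUN against control lies at 0.11 in Tet1 and -0.11 in HOXA9, FOSL2 between Tet1 and HOXA9 goes from -0.01 to 0.02 after quantile normalization, and FOS stays at or above 1.54 in both comparisons with control.

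**Figure D3:**
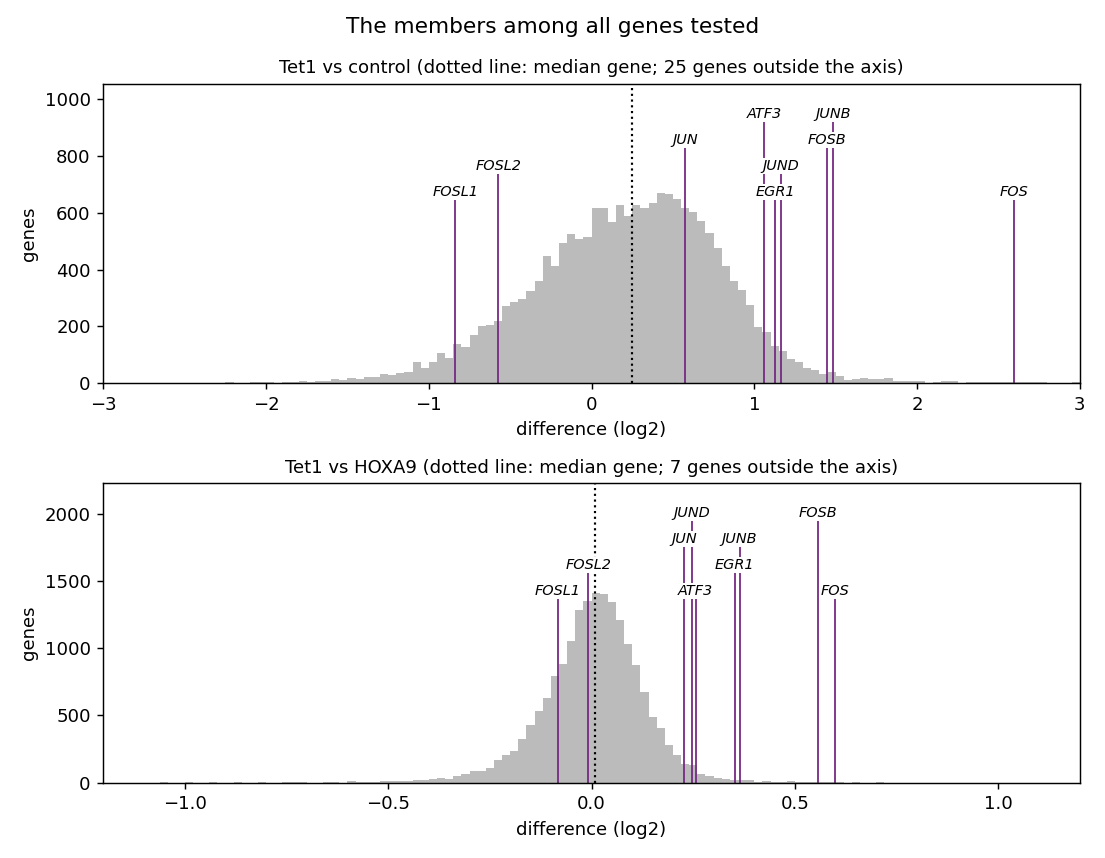
Histograms of the difference (x axis, log2) over all 18417 genes (y axis, number of genes), with the 9 members as vertical lines at heights that carry no meaning. Above, Tet1 minus control, with FOS at 2.6 and FOSL1 at -0.84 (25 genes lie outside the axis). Below, Tet1 minus HOXA9, with 7 members to the right of the median gene and FOS and FOSB farthest out (7 genes lie outside).

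Over the 4 groups the members took few orders. FOS, FOSB, JUN, JUNB, JUND, ATF3 and EGR1 were highest in Tet1 and next in HOXA9, a step called by limma for FOS alone. The step from HOXA9 down to the next group was called for all of these but JUN (0.25, limma adjusted p = 0.083). Over all genes 78.8% were called between HOXA9 and shHMGA2 and 80.1% between Tet1 and shHMGA2. Control and shHMGA2 came last and differed for ATF3 and EGR1 but not for FOS, FOSB, JUN, JUNB or JUND. FOSL1 ran the opposite way, with control and shHMGA2 above HOXA9 and Tet1 and a called step only between shHMGA2 and HOXA9 (0.51, limma adjusted p = 0.00051). For FOSL2 only the step from control to HOXA9 was called (0.56), and the other neighbours differed by 0.01.

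The genes whose pattern was nearest to a member were found by the root mean square difference of values centred per gene over the 10 arrays, among 14948 other genes, for the 6 members whose group means spanned at least 1. FOS lay nearest to SNORA24, RGCC and TERC (0.15, 0.15 and 0.16). FOSB lay nearest to GOLGA2P9, LBH and GADD45G (0.1, 0.12 and 0.12), and JUNB to BMP2, GADD45G and FAM151A (0.07, 0.08 and 0.09). JUND lay nearest to IFT20, DTX1 and GLRA4 (0.07, 0.08 and 0.08), ATF3 to ADAP2, LEFTY2 and CACNG6 (0.09 each), and EGR1 to PLAC1, SSBP2 and RPS24 (0.09, 0.1 and 0.11). Among the members, JUNB was 17th nearest to FOSB at 0.14, and ATF3 was 10th nearest to EGR1 at 0.12. In the other direction FOSB was 124th nearest to JUNB, and EGR1 was 56th nearest to ATF3. The member nearest to FOS was JUNB, 214th at 0.47. The 10 arrays fall into 2 sets, and any gene with a like step between them scores as near.

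Other immediate early genes moved in part with the members. Of 27 measured, 20 rose and 2 fell in Tet1 against control (74.1% and 7.41%), and 21 rose and 3 fell in HOXA9 (77.8% and 11.1%). Over all genes the shares were 53.9% higher and 23.2% lower in Tet1 and 54% and 21.6% in HOXA9, and every list below is to be read against these. EGR3, a relative of EGR1, rose by 1.35 and 1.28, and the phosphatase gene DUSP2 by 1.07 and 0.88, while PPP1R15A (-0.61 and -0.89) and CCN1 (-0.3 and -0.66) fell. After quantile normalization the counts were 18 and 2 in Tet1 and 14 and 4 in HOXA9, where all genes were split about evenly. With equal medians they were 10 and 8 in Tet1 and 3 and 7 in HOXA9, where 21.9% and 20.3% of all genes were higher and 51.4% and 51.1% lower. The list median was 0.55 in Tet1 and 0.4 in HOXA9, against 0.25 and 0.24 over all genes. In shHMGA2 1 rose, RHOB (0.29), and 9 fell (33.3%, against 12.6% of all genes), with GEM (-0.71), CCN1 (-0.48) and ZFP36 (-0.47), while EGR1 and ATF3 rose in the same arrays. Between Tet1 and HOXA9 limma called 0 of the 27, where 0.434% of all genes were called. At an unadjusted p under 0.05, 10 were higher and 0 lower in Tet1, where 9.16% of all genes passed (3.87% higher). The list median there was 0.19, against 0.01 over all genes.

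Known AP-1 target genes went in both directions, on the deposited values at shares near those over all genes. Of 23 measured, 13 rose and 6 fell in Tet1 (56.5% and 26.1%) and 13 rose and 7 fell in HOXA9 (56.5% and 30.4%). The chemokine CXCL8 (2.24 and 1.52) and PTGS2, a prostaglandin synthase (1.9 and 1.74), rose. MMP1, a collagenase long used as an AP-1 reporter gene, fell (-2.86 and -2.99), as did the chemokine CCL2 (-2.79 and -2.92). After quantile normalization 11 were higher and 7 lower in Tet1, and 10 and 8 in HOXA9, and with equal medians 9 and 9, and 8 and 10. The shares higher after quantile normalization were 47.8% and 43.5%, against 32.6% and 29.7% of all genes. With equal medians they were 39.1% and 34.8%, against 21.9% and 20.3%. The shares lower were 30.4% and 34.8% (33.3% and 34% of all genes), and 39.1% and 43.5% (51.4% and 51.1%). In shHMGA2, 8 fell (34.8%, against 12.6% of all genes), with CCL2 (-2.21), IL6 (-0.81) and VEGFA (-0.68), and IL1B rose (1.26). Between Tet1 and HOXA9 the collagenase MMP13 was lower in Tet1 (log2 -2.66, limma adjusted p = 6.1e-08), and HMOX1, a haem oxygenase, and CXCL8 were higher (0.85 and 0.72, adjusted p = 0.00039 and 0.03). Of the 23, 2 were thus higher and 1 lower (8.7% and 4.35%), where 0.434% of all genes were called.

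Relatives of AP-1 and the genes upstream showed no common direction. Of 12 AP-1 relatives (BATF, Maf, ATF and JDP2 genes), 5 rose and 3 fell in Tet1 (41.7% and 25%) and 4 rose and 3 fell in HOXA9 (33.3% and 25%). MAFG, a small Maf partner, was lowest at -1.38 and -1.16, and with equal medians 2 were higher and 7 lower in Tet1, and 2 and 8 in HOXA9. In shHMGA2 MAF rose (0.27) and MAFF fell (-0.26). Of 18 upstream kinases and activators 7 rose and 7 fell in each of Tet1 and HOXA9 (38.9% each way), with MAP2K6, a p38 activator, at 1.04 and 0.96 and MAP2K3, another, at -0.78 and -0.93. Under equal medians these counts were 3 and 12, and 5 and 11. In shHMGA2 3 rose, with MAP2K6 (1.07), and 2 fell, RPS6KA1 (-0.31) and MAPK8 (-0.19).

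Of 10 measured EGR corepressors and EGR1 targets, 5 rose and 3 fell in Tet1 (50% and 30%) and 5 rose and 4 fell in HOXA9 (50% and 40%). FN1, fibronectin, rose (2.33 and 2.38) and ID3 fell (-1.52 and -1.59). With equal medians the counts were 2 and 4, and 2 and 5. In shHMGA2 4 of the 10 fell (40%, against 12.6% of all genes) and 0 rose. At an unadjusted p under 0.05, 6 were lower and 0 higher, where 36.3% of all genes passed (17.5% higher). Those with the largest falls were TGFB1 (-0.63), F3 (-0.55) and PDGFA (-0.44), in the arrays in which EGR1 was 0.27 higher. Of 14 genes of the ATF4 and stress response around ATF3, 6 rose and 2 fell in Tet1 (42.9% and 14.3%), and 4 and 2 in HOXA9 (28.6% and 14.3%). DDIT4 was the largest at 2.56 and 2.18, and ASNS fell (-0.4 and -0.63). Under equal medians 3 were higher and 8 lower in Tet1, and 1 and 9 in HOXA9. In shHMGA2 SESN2 (0.65), ASNS (0.5) and ATF4 (0.23) rose and 4 fell, with DDIT4 at -0.58. Limma called 0 genes of these 4 lists between Tet1 and HOXA9. At an unadjusted p under 0.05 the numbers higher and lower in Tet1 were 0 and 0 for AP-1 relatives, 0 and 1 for upstream genes, 2 and 1 for the EGR list and 3 and 0 for the stress list. Of all genes, 9.16% passed there (3.87% higher).

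On the deposited values, markers of other cell types also stood higher in the Tet1 and HOXA9 arrays. All 8 measured leukocyte markers and 8 of 9 fibroblast markers were called higher than control in each, and 0 lower, where 53.9% and 54% of all genes were called higher. The mean level of the fibroblast list was 7.14 to 7.16 in Tet1, 6.87 to 6.91 in HOXA9, and 6.14 to 6.26 in the other set. That of the leukocyte list was 6.65 to 6.75 against 5.93 to 6.05. In Tet1, 3 of 9 fibroblast and 2 of 8 leukocyte markers had a group mean below the 30th percentile, and in control 4 and 5. After quantile normalization 4 leukocyte markers were higher and 1 or 2 lower, and 7 fibroblast markers higher in each. Of all genes, 32.6% were then higher in Tet1 and 29.7% in HOXA9. With equal medians 2 leukocyte markers (25%) were higher in each, against 21.9% and 20.3% of all genes. Of the fibroblast markers 6 were then higher in Tet1 and 5 in HOXA9. Between Tet1 and HOXA9, COL1A1 and COL1A2 were higher in Tet1 (0.56 and 0.46). The part of these in the differences of the AP-1 genes was not tested.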

How the data were processed

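The deposited table gives log2 values that the authors made with RMA under R 2.11, per the submitters' processing notes, from Affymetrix human gene arrays (12 columns, 33297 probe sets). The sources used here do not say whether the arrays were normalized as a single batch. Gene names came from the platform annotation: 19460 probe sets have 1 symbol, 1754 several and 12083 none. The highest-mean probe set per symbol gave 18417 genes, with no filter on dim ones. A column was taken for an average where it lay within 1e-06 of the mean of the other 2 of its group at every probe set. A linear model of the 4 groups over 10 arrays was fitted with limma 3.58.1 in R 4.3.3 (degrees of freedom: residual 6, prior 5.65). A gene was called where its two-sided p, adjusted by Benjamini-Hochberg over the 18417 genes, was under 0.05. SE and intervals pool the spread of the groups. The labels call the samples biological replicates without naming separate cultures, so p-values measure the spread between these samples, and the number of arrays limits precision.

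The members and gene lists were chosen with earlier results of these data known. All members were named. In each list up to 3 genes called with the largest rise and 3 with the largest fall were open to naming. The HEK293 genes not called in shHMGA2 are named as well. The fit was tested on simulated data. Alternatives changed the normalization, arrays, dim genes, variance model, probe sets and replicate block.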

Additional observations from a re-analysis of the deposited data

How the results depend on the processing

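For Tet1 against HOXA9 the count of called genes was 80 on the deposited values, 145 after quantile normalization, 143 in a fit of these groups only, 1112 with the averaged columns counted, and 11 to 72 with each array left out in turn. The averaged columns add no independent array, and a fit without an array leaves 1 in its group. The count of called members there was 1, and 2 after quantile normalization, with equal array medians, and with a mean-variance trend and robust prior, 6 with the averaged columns, 0 with the replicate block and 0 to 1 with arrays left out. In shHMGA2 against control it was 3, and 1 to 4 with arrays left out (1 without shHMGA2 replicate 3). The count of all called genes there was 4830, and 4885 with the replicate block. The block, run because the labels number replicates alike, gave 4 members in shHMGA2, FOSL1 included (-0.25, adjusted p = 0.011), and left FOS between Tet1 and HOXA9 at 0.6 (adjusted p = 0.061). Same-numbered arrays had correlations of their deviations of 0.164, 0.14 and 0.002 for shHMGA2 with control, where 4 of 6 arrays correlated best with their own number. For Tet1 with HOXA9 the correlation was 0.168. Both pairs give that same value by arithmetic, since the deviations of 2 arrays in a group mirror each other. For Tet1 and HOXA9 with control the correlations were -0.184 to 0.1. The labels name nothing that a number shares and Tet1 and HOXA9 give only 2 pairs, so the numbers were not taken to pair the samples. Both comparisons with control gave 9 called members with the block and 8 with equal medians. Directions turned only for small values: JUN in HOXA9 against control (-0.11 with equal medians), FOSL2 between Tet1 and HOXA9 (0.02 after quantile normalization, -0.1 to 0.08 with arrays left out), and, in shHMGA2 with arrays left out, FOS (-0.01 to 0.14), FOSB (-0.09 to 0.03) and JUN (-0.01 to 0.22). Counts in the 12 lists moved by over 1.5 times in 38 of 96 cases with equal medians and 21 of 96 after quantile normalization. The cause was not tested.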
